A study of Drosophila melanogaster with 4 samples.

Results

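HP1c belongs to the heterochromatin protein 1 family of Drosophila melanogaster. It carries a chromodomain, the fold with which proteins of this family bind methylated histone H3, and a chromoshadow domain, through which they contact partner proteins. Unlike HP1a, the founding member that coats pericentric heterochromatin, HP1c is known mainly from euchromatin, where it works with the zinc finger proteins WOC and ROW at active genes. A domain, here, is a single unbroken region of enrichment of at least 4000 bp in the list that the authors made from the replicate set, called the combined list.

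The domains described are the regions of the combined list on the arms 2L, 3L, 3R and X that span 4000 bp or more. These domains were selected on their width and number 506, out of 5761 combined regions on these 4 arms and 8021 in the whole list. Their widths and number are therefore given as a description and with no test. The data are ChIP-seq of HP1c, with the antibody MO 462, in embryos of the wild-type strain Oregon-R, 14 to 16 h old per the labels and fixed with 1.8% formaldehyde, with 2 HP1c ChIP samples and 2 Input samples. Each ChIP replicate has a list of its own, and the Input samples enter only through the authors' calls. The samples come from whole embryos, so a domain may be occupied in some cells and not in others. Read counts are not part of the lists, and the depth behind a domain is unknown. No label says that the replicates came from separate embryo collections. The replicate lists and the combined list rest on the same ChIP libraries, so replicate regions inside domains are no independent test of the domains, and no test across 2 samples was run.

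The domains were few and long. They made up 8.78% of the combined regions on the 4 arms but 28.0% of the bases these regions covered, 3.94 Mb in all or 4.03% of the arms. Their median width was 5254.5 bp, with an interquartile range of 4485.75 to 7110.5 bp and a maximum of 120793 bp. The 71 domains of 10000 bp or more were 14.0% of the domains and held 40.2% of their bases, and the 10 widest alone held 15.9%. At the edge of the rule, the narrowest domain was 4005 bp wide, at X 16319293 to 16323297 with a score of 0.809. The widest regions left out measured 3993 bp, at 3R 735080 to 739072 with a score of 0.51 and at 2L 4447552 to 4451544 with a score of 0.936.

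The score is the authors' own value for each region, on a scale that no label or header states. Its median was 0.755 over the domains (range 0.373 to 2.91) and 0.449 over the 5255 narrower regions of the same arms (range 0.133 to 5.49), a difference that was not tested, since score and width are measures of the same calls. Among the domains width and score were nearly unrelated (Spearman rho 0.13 across 506 domains, as a description), whereas among the narrower regions they rose together (rho 0.47 across 5255 regions). The highest median score by width class, 0.861, belonged to the 22 domains of 20000 bp or more, and the lowest, 0.714, to the 62 domains of 7000 to under 10000 bp.

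**Figure D1:**
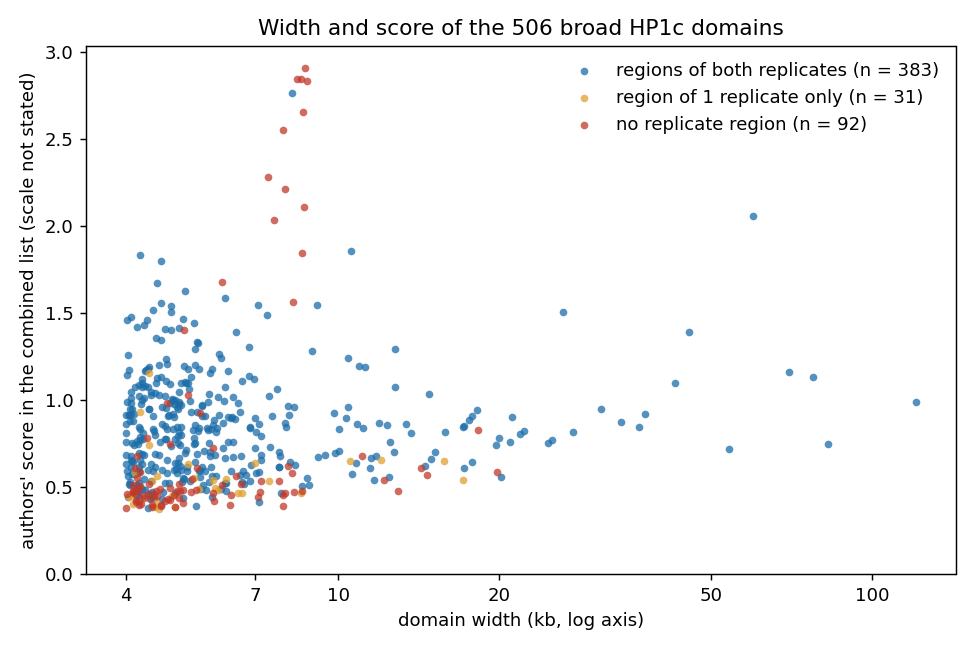
Each point is 1 of the 506 domains, with its width in kb on a log axis and its score in the combined list, coloured by the number of replicates with a region in it. Most domains lie under 10 kb and under a score of 1.5. Of the 12 points above a score of 2, 10 have no replicate region, and these lie between 7 and 10 kb.

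Most domains contained HP1c regions of both replicates. Of the 506 domains, 383 (75.7%, exact binomial 95% interval 71.7 to 79.4) were overlapped by at least 1 bp by regions of both, against a background of 49.2% among all 5761 combined regions on these arms. A further 31 were overlapped by 1 replicate, 12 of them by replicate 1 and 19 by replicate 2, and 92 (18.2%, 14.9 to 21.8) by neither, against a background of 38.3%. A wide region has more bases at which an overlap can occur. At the middle base of each region, a measure that width does not enlarge and that was added after the results were seen, 281 domains (55.5%) were covered by both replicates, against 46.5% of all combined regions and 45.7% of the narrower ones. By width class this share was 68.5% at 4000 to under 5000 bp and 63.8% at 5000 to under 7000 bp. It was 32.3% at 7000 to under 10000 bp, 20.4% at 10000 to under 20000 bp and 13.6% at 20000 bp or more. Only domains under 7000 bp thus exceeded the narrower regions by this measure. Counting error is all that these intervals cover, and domains that neighbour each other are not independent.

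A single replicate region was the usual content of a domain. In replicate 1, 301 domains held 1 region, 78 held 2, 16 held 3 or more and 111 held none. In replicate 2, 338 domains held 1 region, 47 held 2, 17 held 3 or more and 104 held none. The replicates gave the same number in 304 of the 383 domains that had both. The replicate regions in domains were 527 of the 3734 on these arms in replicate 1 and 513 of 3766 in replicate 2. Their median width was 2885 bp in replicate 1 and 3657 bp in replicate 2, against 2139 bp in replicate 1 and 2163 bp in replicate 2 for the regions outside domains. Their median score was 0.881 in replicate 1 and 1.14 in replicate 2, against 0.62 in replicate 1 and 0.748 in replicate 2 outside. The regions outside include those that lie in no combined region. Replicate regions in the narrower combined regions had a median width of 2244 bp in replicate 1 and 2204 bp in replicate 2. The median score of these was 0.715 in replicate 1 and 0.812 in replicate 2.

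Wide calls in the replicates fell mostly in domains, but not always. Replicate 1 had 246 regions of 4000 bp or more on these arms, of which 167 overlapped a domain, and replicate 2 had 291, of which 230 did. Among regions of any width on these arms, 14.1% in replicate 1 and 13.6% in replicate 2 overlapped a domain. Since domains were selected on width in a list from the same libraries, such overlap is largely built in and is given as a description. The widest replicate region was 14329 bp long in replicate 1 and 16756 bp in replicate 2, so no replicate region came near the length of the widest domains.

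Regions of at least 1 replicate covered 50.6% of all domain bases, against 63.9% of the bases of the narrower regions on these arms. The median covered share of a domain was 56.6% in replicate 1 (interquartile range 17.9% to 88.4%) and 67.4% in replicate 2 (21.9% to 99.2%). In the narrower regions the median was 1.42% in replicate 1 and 87.0% in replicate 2. Over all bases of the domains, 42.6% were covered in replicate 1 and 47.9% in replicate 2. Both were lower than in the narrower regions, with 52.1% in replicate 1 and 61.3% in replicate 2. Of the bases in domains that either replicate covered, 78.9% were covered by both, against 77.4% in the narrower regions. Replicate 2 covered the larger share in 261 domains and replicate 1 in 110, and the shares were equal in 135, which include the 92 without a replicate. The covered shares of both replicates ran together across domains (Spearman rho 0.89 over 506 domains, and 0.83 over the 383 with regions of both).

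Wider domains were covered to a smaller share. In domains of 4000 to under 5000 bp the median share was 66.2% in replicate 1 and 90.7% in replicate 2, and in those of 5000 to under 7000 bp it was 67.3% in replicate 1 and 77.1% in replicate 2. In domains of 7000 to under 10000 bp the medians were 27.6% in replicate 1 and 30.2% in replicate 2. In domains of 10000 to under 20000 bp they were 29.8% in replicate 1 and 32.3% in replicate 2, and in those of 20000 bp or more 20.7% in replicate 1 and 22.6% in replicate 2. The 22 domains of the last class held regions of both replicates without exception, and 19 of them held 2 or more replicate 1 regions and 18 of them 2 or more replicate 2 regions. The replicate regions in that class were of ordinary size, with a median width of 2182 bp in replicate 1 and 2273 bp in replicate 2. In 14 of the 22 the replicate 1 regions covered under 25% of the domain, and in 13 the replicate 2 regions did.

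**Figure D2:**
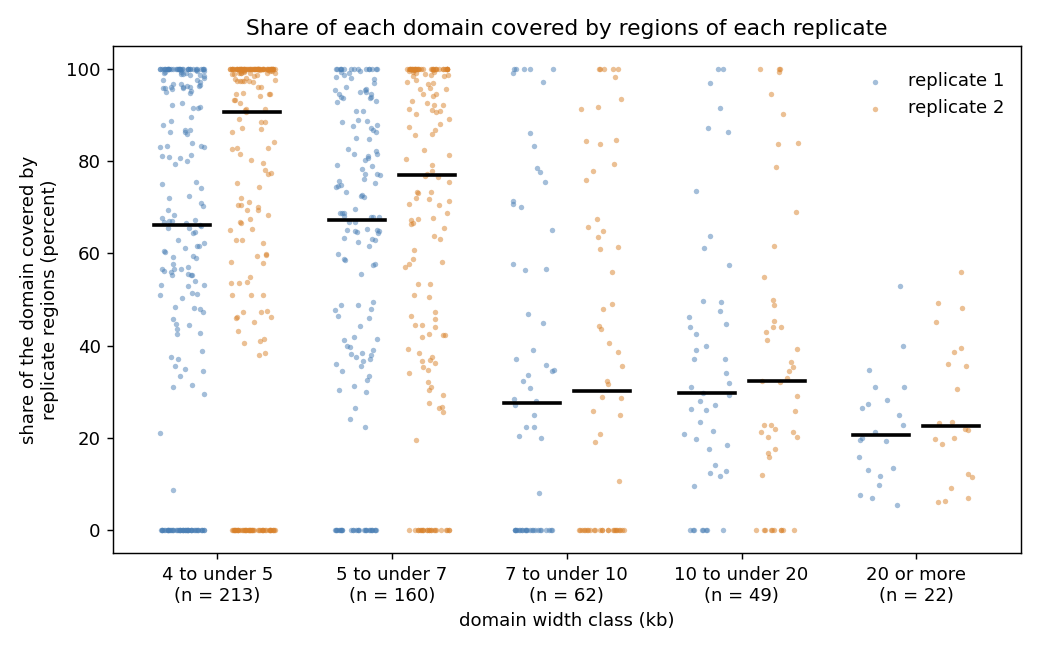
Points show the share of each domain covered by regions of replicate 1 and of replicate 2, in percent, by width class in kb, and black lines mark the medians. The medians lie at 66.2% in replicate 1 and 90.7% in replicate 2 in the narrowest class, and at 20.7% in replicate 1 and 22.6% in replicate 2 in the widest, where every domain has regions of both.

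In 114 of the 506 domains both replicates covered at least 90% of the sequence, and in 42 both covered all of it. Among the 5255 narrower regions of these arms the counts were 1761 and 978, in both cases a larger share. Of the 114 domains, 66 were 4000 to under 5000 bp wide, 37 were 5000 to under 7000 bp, 7 were 7000 to under 10000 bp and 4 were 10000 to under 20000 bp. The edges of the replicate regions lay within 500 bp of both edges of the domain in 98 domains for both replicates at once. The domain at X 2028303 to 2033172 (score 1.51) held 1 region of each replicate, 4942 bp long with a score of 2.05 in replicate 1 and 5348 bp long with a score of 2.17 in replicate 2. By score these ranked 48 in replicate 1 and 85 in replicate 2. The domain at X 3634487 to 3639520 (score 1.41) was covered by a replicate 1 region that ranked 31 and a replicate 2 region that ranked 259. The domain at 2L 1726737 to 1730754 (score 1.46) was also covered in full by both, with region scores of 1.65 in replicate 1 and 2.07 in replicate 2. So were X 4215938 to 4220142 (score 1.42) and 2L 2882428 to 2886862 (score 0.95). These 5 have the lowest starts among the fully covered domains.

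A few domains were covered in 1 replicate only. The domain at 3L 19625734 to 19630280 (score 0.387) was covered to 100% by a replicate 2 region with a score of 0.718 and held no replicate 1 region. The domain at 3L 8099697 to 8103823 (score 0.401) was covered to 98.6% in replicate 2 and to 0% in replicate 1. Replicate 1 had no region either in 3L 23718082 to 23723326 (score 0.631), covered to 85.6% in replicate 2, in 2L 21557218 to 21561645 (score 0.741), covered to 83.0%, and in 2L 21728867 to 21733439 (score 0.565), covered to 66.7%. These were the 5 domains with the largest difference between replicates, and all 5 were higher in replicate 2. Their replicate 2 regions ranked between 1993 and 3331 of the 4801 in that list.

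The widest domains were mapped region by region. The domain at 3R 25518698 to 25639490, 120793 bp wide with a score of 0.989, held 9 replicate 1 regions and 10 replicate 2 regions. Its strongest region in both replicates was at 25596896 to 25600918 in replicate 1 (score 1.95) and at 25596890 to 25600815 in replicate 2 (score 2.16), so that starts differed by a few bases. Replicate regions were absent from its first 32234 bp. Replicate 1 alone held a region at 25550932 to 25552539 (score 0.541). Replicate 2 alone held regions at 25584898 to 25589472 (score 0.891) and 25589702 to 25591723 (score 0.559). The domain that followed it on the map began 5669 bp further on.

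The domain at 3L 3375762 to 3458545, 82784 bp wide with a score of 0.748, had 10 replicate 1 and 12 replicate 2 regions. Their scores ran between 0.42 and 0.903 in replicate 1 and between 0.381 and 0.83 in replicate 2. They covered 31.1% of it in replicate 1 and 30.6% in replicate 2, and the longest stretch that neither covered was 13642 bp. The widest domain of 2L, 446110 to 523537 with a score of 1.13, held its strongest regions at 477905 to 482312 in replicate 1 (score 1.74) and 478863 to 482281 in replicate 2 (score 1.92). Its right end coincided with a replicate region in both, and 30557 bp between the inner regions and this end held none. The widest domain of X, 12607074 to 12652549 with a score of 1.39, held 3 replicate 1 regions covering 28.1% and 6 replicate 2 regions covering 48.3%. Replicate 2 alone had regions in its left part, at 12612528 to 12614345 (score 0.497) and 12617954 to 12620024 (score 0.762).

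Other very wide domains held few replicate regions. In the domain at 3R 11808552 to 11878509, 69958 bp wide with a score of 1.16, neither replicate had a region in the first 58597 bp. Its strongest regions were 11873560 to 11876395 in replicate 1 (score 1.66) and 11873909 to 11876379 in replicate 2 (score 1.83), near the right end. In the domain at 3R 15424140 to 15460674 (score 0.847) the only regions were 15452801 to 15454753 in replicate 1 (score 0.462) and 15452565 to 15454789 in replicate 2 (score 0.798), after 28425 bp without any. The domain at 3R 26555036 to 26608967 (score 0.721) had 2 regions of each replicate, the first beginning 31058 bp from the left end, covering 7.61% of it in replicate 1 and 6.94% in replicate 2. The domain at 3L 8670765 to 8708304 (score 0.919) had 2 regions of each as well, with starts within 50 bp of each other, covering 11.8% in replicate 1 and 11.6% in replicate 2.

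The remaining 2 of the 10 widest domains were more evenly filled. The domain at 3L 602995 to 662757 had a score of 2.06, the highest of any domain over 10000 bp, and its 7 replicate 1 regions covered 39.9% of it and its 9 replicate 2 regions 39.6%. Its strongest regions overlapped between replicates, at 626035 to 631294 in replicate 1 (score 1.28) and 626123 to 631735 in replicate 2 (score 2.00). The domain at 3L 16013997 to 16056797 (score 1.10) held 6 regions of each, covering 31.0% in replicate 1 and 36.1% in replicate 2. In domains of 10000 bp or more with both replicates, the middle of a replicate 1 region lay a median of 223 bp from the nearest middle of a replicate 2 region (140 regions), and in all domains with both the median was 234 bp (515 regions). The distance was at most 500 bp for 88 of the 140 and for 324 of the 515.

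**Figure D3:**
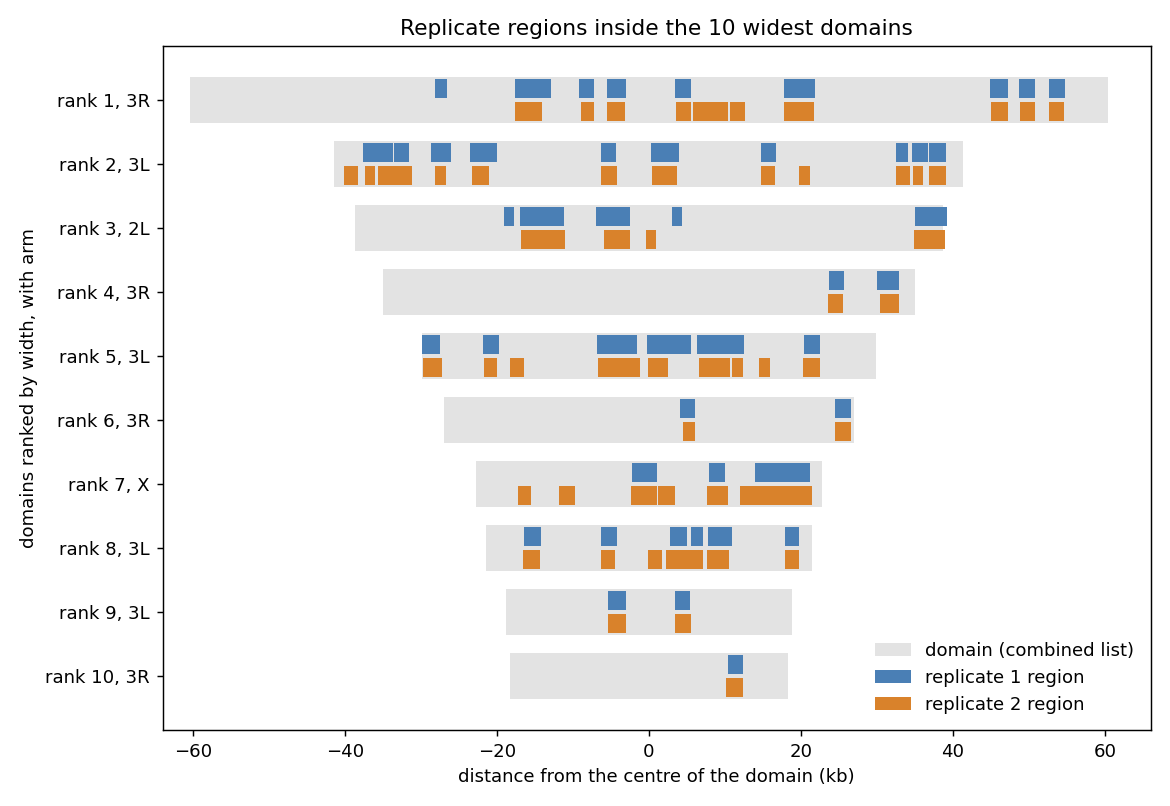
Grey bars are the 10 widest domains, drawn to scale around their centres in kb, with the regions of replicate 1 above those of replicate 2. The blue and orange bars line up in most places. In each of the 10 the bars leave most of the domain bare, and ranks 4, 6 and 10 have the smallest covered shares.

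The domains with the highest scores had no counterpart in the replicates. Of the 10 highest, 9 were overlapped by no replicate region. These were 3R 26899496 to 26908170 (score 2.91), 2L 3251183 to 3259542 (2.84), 3L 20469407 to 20477940 (2.84) and X 10242189 to 10250926 (2.83), which are the highest of their arms. The others were X 21594534 to 21603128 (2.66), 3R 3521707 to 3529594 (2.55), X 11206304 to 11213706 (2.28), 3L 14818059 to 14826013 (2.22) and 3R 3555125 to 3563745 (2.11). The remaining domain of the 10, X 4989943 to 4998132 (score 2.76), was touched at its left edge, to 8.11% by a replicate 1 region and to 10.6% by a replicate 2 region.

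Most of these domains were of similar width. Of the 28 domains with a score of 1.5 or more, a limit chosen after the scores were seen, 13 had no replicate region, and the interquartile range of their widths was 7888 to 8595 bp, with a minimum of 6050 bp and a maximum of 8738 bp. The other 15 had regions of both replicates. Of the 62 domains of 7000 to under 10000 bp, 23 (37.1%, exact binomial 95% interval 25.2 to 50.3) had no replicate region. Their median score was 1.56, with a wide interquartile range of 0.477 to 2.42, so that low scores were also among them. The 37 with both had a median score of 0.723 (interquartile range 0.625 to 0.927). Outside this width class 69 of 444 domains (15.5%) had no replicate region. High scores without a replicate were not limited to domains: with a score of 1.5 or more, 13 of 28 domains had none, against 63 of 123 narrower regions on these arms, and with a score of 1.8 or more 11 of 15 domains had none, against 48 of 55 narrower regions. Share of repeats and read mappability in these places were not analysed here.

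Domains with low scores also lacked replicate regions. In the 25% of domains with the lowest scores (0.373 to 0.552), 46 of 127 had regions of both replicates and 60 had none. In the next 25% 105 of 126 had both, in the 25% after that 121 of 126, and in the 25% with the highest scores, which include the 13 above, 111 of 127. The 79 domains without a replicate region and with a score under 1.5 had a median score of 0.479 and a median width of 4947 bp. The score of a domain went with that of its strongest replicate region where both replicates had one (Spearman rho 0.75 for replicate 1 and 0.88 for replicate 2 across 383 domains, as a description of lists that share their libraries).

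The widest domains without a replicate region had modest scores. They were 3R 24596818 to 24616636 (19819 bp, score 0.585), 2L 22695890 to 22714130 (18241 bp, score 0.828), 2L 8963568 to 8978236 (14669 bp, score 0.567), 3R 26540704 to 26555023 (14320 bp, score 0.608) and 3L 554143 to 567101 (12959 bp, score 0.476). The 3R domain at 26540704 ended 12 bp before the sixth widest domain, and that on 2L at 8963568 lay 236 bp from its neighbour. The 3L domain at 554143 lay 284 bp from the nearest combined region.

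The 4 arms differed in how many domains they carried. The arm 2R was not part of the selection and is missing from this comparison. In the whole combined list 719 regions measured 4000 bp or more. 2L had 182 domains or 7.91 per Mb, 3R had 131 or 4.69 per Mb, X had 99 or 4.42 per Mb and 3L had 94 or 3.83 per Mb. They covered 5.70% of 2L, 4.22% of 3R, 3.21% of 3L and 2.98% of X. As a share of all combined regions on the arm, domains were 10.5% on 2L, 9.62% on X, 7.85% on 3R and 7.10% on 3L. Over the 4 arms this share was 8.78%, and over 2L, 3L and 3R together it was 8.60%. By this share X thus lay above 2L, 3L and 3R together, while by domains per Mb it lay below them. The ratio of domains per Mb on X to those on 2L, 3L and 3R was 0.82 (exact binomial 95% interval 0.65 to 1.02, counting error only), and to those on 3L and 3R alone it was 1.03. These are descriptions, since the choice of domains used the list in which they are counted.

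The share of domains with both replicates was highest on X. Of the 99 domains on X, 89 (89.9%) had regions of both replicates, and their median covered share was 88.7% in replicate 1 and 100% in replicate 2. On 3L, 77 of 94 (81.9%) had both, with medians of 60.4% in replicate 1 and 80.9% in replicate 2. On 3R, 99 of 131 (75.6%) had both, with 49.5% in replicate 1 and 59.8% in replicate 2, and on 2L 118 of 182 (64.8%), with 36.3% in replicate 1 and 48.2% in replicate 2. The narrower regions had the same order of arms, with 71.3% on X, 48.1% on 3L, 46.2% on 3R and 31.3% on 2L overlapped by both. The median score of a domain was 0.929 on X, 0.841 on 3L, 0.679 on 2L and 0.678 on 3R.

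The end of 2L at the centromere held the densest group of domains. At 2L 22 to 23 Mb there were 49 domains among 152 combined regions, whereas over the 4 arms domains were 8.78% of combined regions. The widths of these 49 domains added up to 422 kb, and 30 of them had no replicate region and 14 had both. Replicate 1 covered 11.7% and replicate 2 covered 17.1% of their bases. Of the bases of the other 133 domains of 2L, replicate 1 covered 48.1% and replicate 2 covered 54.3%, and 104 of these domains had both replicates and 17 had none. The median score was 0.539 in this window and 0.741 elsewhere on 2L. The 20% of 2L nearest the centromere had 20.0 domains per Mb, against 4.93 in the middle of the arm and 4.78 in the 20% nearest the telomere.

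On 3L, 3R and X the part near the centromere had fewer domains per Mb than the middle of the arm, with 2.65 against 3.87 on 3L, 3.76 against 4.72 on 3R and 4.01 against 5.20 on X. The part near the telomere had 4.89 on 3L, 5.55 on 3R and 2.45 on X, so that on X it was the sparsest. Without 2L there were 3.47 domains per Mb in the 20% nearest the centromere, 4.59 in the middle and 4.41 in the 20% nearest the telomere. On 3R and 3L the telomere-near part was the one most covered by domains, with 7.00% of 3R and 6.05% of 3L, against 3.91% and 2.85% in the middle. Much of this lay in a few very wide domains, of 120793 bp and 53932 bp on 3R and of 82784 bp and 59763 bp on 3L. Replicate regions covered between 6.94% and 39.9% of each of these. The covered share of the arm part without them was not computed. On X the middle was covered most, with 3.77%, against 2.22% near the centromere and 1.35% near the telomere. Domains without a replicate region made up 34.0% of those near the centromere, 11.7% in the middle and 12.5% near the telomere over all 4 arms, and 26.9%, 10.7% and 13.6% without 2L. On 3L the order was another, with 7.69% near the centromere, 12.3% in the middle and 4.17% near the telomere.

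**Figure D4:**
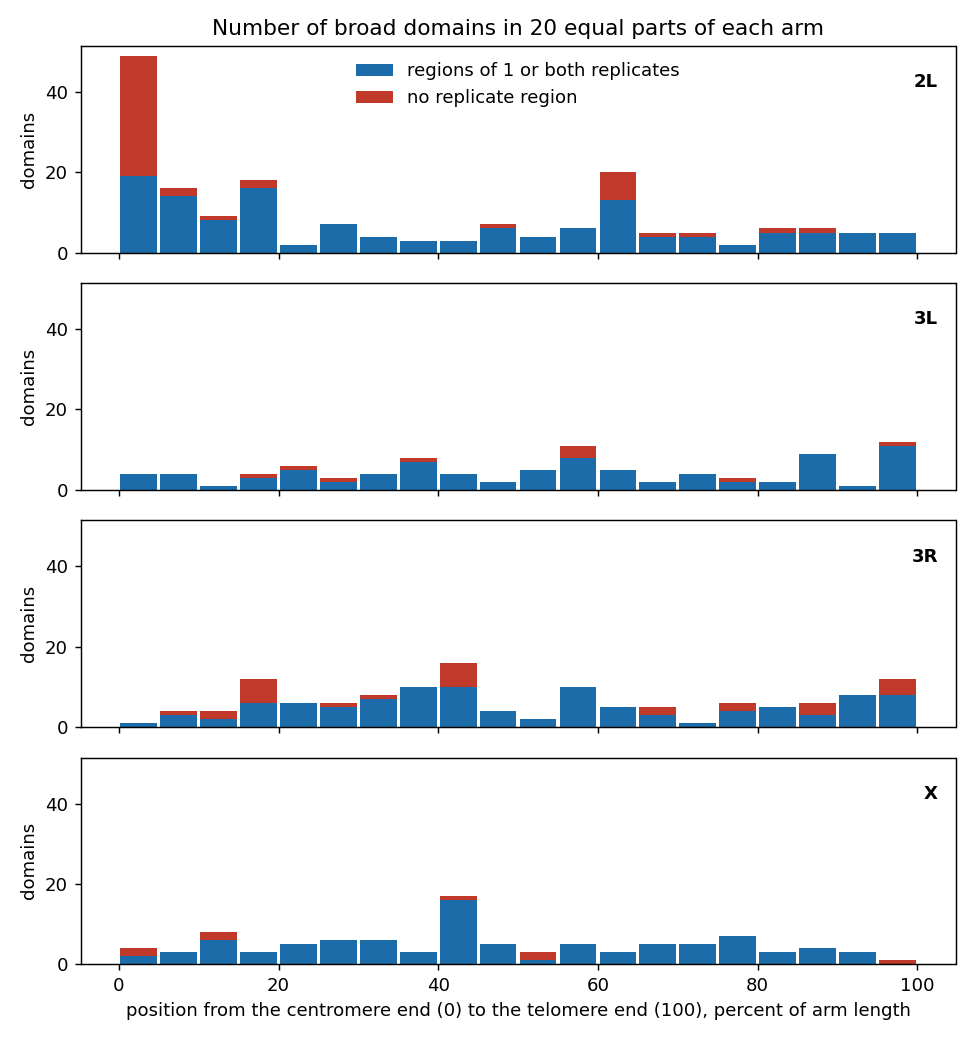
Bars count domains in 20 equal parts of each arm, from the centromere end to the telomere end in percent of arm length, with domains without a replicate region in red. The first bar of 2L reaches 49 domains, and 30 of these are red.

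Away from that place the domains were spread over the arms with some crowded windows. Of the 95 other complete windows of 1 Mb, 2 had no domain, the median window had 4, and 10 windows with 10 or more held 28.4% of the domains in these windows. After 2L 22 to 23 Mb, the most crowded were 2L 8 to 9 Mb with 20 domains, 7 of them without a replicate region, and 2L 19 to 20 Mb with 18 domains, 2 of them without. The most crowded window of X, 13 to 14 Mb, had 13 domains among 92 combined regions, and 12 of the domains had regions of both replicates. The window 3L 0 to 1 Mb had 12 domains among 80 combined regions. The widths of these domains added up to 151 kb, and 8 of them had both.

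Many domains stood close to another one. The median gap to the next domain was 71.2 kb over the 4 arms, 29.1 kb on 2L, 92.8 kb on 3R, 138 kb on X and 153 kb on 3L. The largest stretch between neighbouring domains, 1678 kb, was on 3R. Of 502 gaps, 142 were under 10000 bp. When domains closer than that were put together, 295 stood alone and 211 formed 69 groups, of which 10 had 5 or more members. The share of domains in such groups was 52.7% on 3R, 51.1% on 2L, 28.7% on 3L and 22.2% on X.

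The 3 groups with the most domains all lay at 2L 22 to 23 Mb, the first at 22094851 to 22199345 with 12 domains, of which 5 had regions of both replicates and 5 had none. Elsewhere, the group with the most domains was at 3R 26540704 to 26644134, where 6 domains filled 93.3% of 103431 bp and 4 of them had both replicates. The group with the longest span, 164352 bp at 3R 25505964 to 25670315, had fewer domains, which filled 96.1% of it. On X, 4 domains filled 92.7% of 12558845 to 12661495, and 3 of them had both. At 3R 12030458 to 12083337, 5 domains filled 89.9% of the stretch and 4 had both. At 2L 8588417 to 8631209, 5 domains filled 86.4% of the stretch and none had both.

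**Figure D5:**
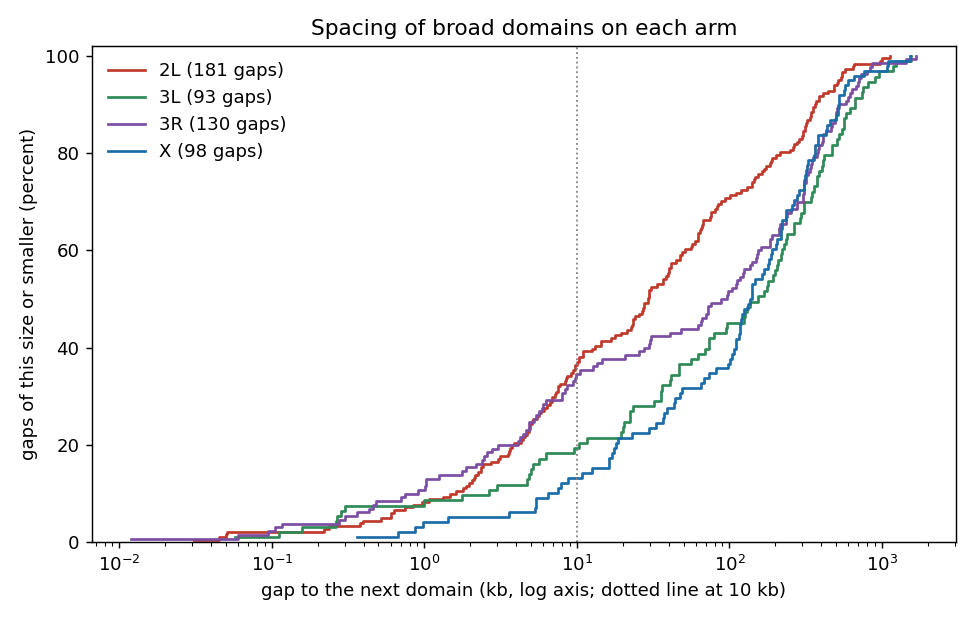
Lines show, for each arm, the percent of gaps between neighbouring domains that are of the size on the log axis (kb) or smaller. At 10 kb the lines of 2L and 3R lie above those of 3L and X, with 66 of 181 gaps on 2L, 45 of 130 on 3R, 18 of 93 on 3L and 13 of 98 on X below it.

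Very short gaps separated some domains from another combined region. The gap to the nearest combined region of any width was under 500 bp for 161 domains (31.8%) and under 100 bp for 44 (8.70%), against 16.4% and 4.07% of the narrower regions, and this difference was not tested. In 8 places 2 domains followed each other with less than 100 bp between them, the shortest gap being the 12 bp on 3R between 26555023 and 26555036. At 2L 8607771 to 8631209, 3 domains followed each other with gaps of 50 bp and 45 bp. With regions closer than 500 bp joined before the width minimum was applied, there were 671 domains in place of 506.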

How the data were processed

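Bowtie 0.12.7 is named in the submitters' processing notes. Which caller and threshold gave the regions, and how the replicate set was combined, is not given in the sources used here. Lists as deposited, on FlyBase release 5 per the file headers, hold the start, the end and a score of each enriched region. The score is the authors' own. Groups and replicate numbers come from the sample titles. Domains were the combined regions of 4000 bp or more on 2L, 3L, 3R and X. A replicate region counted as lying in a domain when they shared at least 1 bp, and covered shares count each base once. Shares of domains have exact (Clopper-Pearson) 95% intervals. No test was run. Positions from the centromere follow the reference maps, on which the centromere is nearest the last base of 2L, 3L and X and nearest the first of 3R. Functions were tested on simulated data with known overlaps.

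The regions named are the 10 widest, the 10 with the highest score, the 5 with the highest lower covered share of both replicates (ties to the lower start), the 5 widest without a replicate region, the highest score and the widest on each arm, and the 5 with the largest difference between replicates. Further regions were named for the edge of the rule, for crowded windows and for groups of close domains, after their values were seen. Members and lists were chosen with earlier results of these data known. Since the only gene table was of release 6, no gene is named and no sequence is shown. Python 3.11.15, numpy 2.4.6, pandas 2.3.3, scipy 1.17.1 and matplotlib 3.10.9 were used.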

Additional observations from a re-analysis of the deposited data

How the results depend on the processing

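Of 65 values under alternative settings, 29 moved by less than a set limit and 36 by more. The limit was the spread between replicates, with 3 exceptions. For the share of domains overlapped by both replicates and for the X ratio it was the exact interval. For the number of domains it was a change of 1.5 times. With a width of 3000 bp or 5000 bp or more, the number of domains was 982 and 293, the median covered share 65.8% and 42.5% in replicate 1 and 81.1% and 49.1% in replicate 2, the share of domains with 2 or more regions 11.0% and 28.3% in replicate 1 and 7.03% and 19.8% in replicate 2, and the median gap 29133 bp and 118290 bp. With regions closer than 500 bp joined, domains with 2 or more regions were 26.4% in replicate 1 and 23.7% in replicate 2, and the median gap was 41515 bp. In the 50% of domains with the highest scores, 253 in number, 91.7% had both replicates, the median covered shares were 79.1% in replicate 1 and 94.5% in replicate 2, 22.9% had 2 or more replicate 1 regions, the median gap was 236221 bp and the X ratio was 1.21, on the other side of 1. Without 2L there were 324 domains, 81.8% with both replicates, median covered shares of 64.5% in replicate 1 and 77.4% in replicate 2 and a median gap of 124383 bp, and without 2L as reference the X ratio was 1.03. Without 2L 22 to 23 Mb, chosen after the results were seen, 80.7% had both replicates and the median gap was 100763 bp. When each replicate had to cover 50% of the domain, 52.2% qualified, and 55.5% when both had to cover the middle base. Without 1 replicate, the other overlapped 78.1% to 79.4% of the domains. Pooled over bases, the covered shares were 42.6% in replicate 1 and 47.9% in replicate 2. With regions wholly inside the domain, 9.88% had 2 or more in replicate 1. The cause of these differences was not tested. No paired analysis was possible because no list of the Input samples was used and no value comes from a test. The depth is unknown, so what it limits cannot be given.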
